A study of Mus musculus with 12 samples.

Results

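Pparg, the gene of the nuclear receptor PPAR gamma, and 9 genes of lipid storage were followed in mice lacking both Prkch and Apoe. The products of these 9 make triglyceride, carry fatty acids, form, coat or enlarge lipid droplets, or inhibit a triglyceride lipase. The 10 genes are Pparg, Fabp4, Mogat1, Fitm1, Cidea, Cidec, Plin2, Plin4, Plin5 and G0s2. Every probe set annotated to one of them alone was used, which gave 10 of the 35557 probe sets on the array for macrophages and liver and 13 of the 22690 on the array for aorta. The genes were chosen by name, with the differences between genotypes on these same arrays already known in all 3 tissues, so those differences count as the values that chose them. They are given as a description, with no p for any member. Counts of members past the thresholds of fits over all genes stand beside the same share of all genes, and nothing is supported by them.

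PPAR gamma is activated by fatty acids and their derivatives, pairs with retinoid X receptors on DNA, and is best known as the switch of fat cell formation. In livers of fat-fed mice it favours triglyceride storage, and in macrophages it takes part in lipid uptake and alternative activation. Lipid droplets are stores of triglyceride and cholesteryl ester that bud from the endoplasmic reticulum and are coated by perilipins, which limit access of lipases.

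Double-knockout mice (Prkch-/-Apoe-/-) were compared with Apoe-/- mice, both on C57BL/6J, so that all groups lack Apoe, which clears lipoproteins from blood, and the controls are not wild type for it. Each genotype has 2 liver arrays, from males 20 weeks old that ate a high-fat diet for 12 weeks and were re-fed. Each has 3 arrays of thioglycolate-elicited, otherwise unstimulated peritoneal macrophages from regular-diet females, 18 weeks old for replicate 1, 17 for replicate 2 and 27 for replicate 3. Aorta came from fed males of the age and diet of the livers, with 1 array per genotype of RNA mixed from 4 mice. The labels call the arrays biological replicates and do not say which part of Prkch was removed. The brighter Prkch probe set was at 61.6% of control in macrophages and 52.7% in liver, with 1 macrophage value out of order between genotypes. A second, dimmer Prkch probe set was at 80.3% of control in macrophages and 101% in liver. In aorta the Prkch signal, which did not pass the filter on dim genes, was 9.94 in the double-knockout pool and 17.2 in the Apoe-/- pool. Hepatocyte markers summed to 126408 to 131551 in double-knockout and 124639 to 125943 in Apoe-/- livers on the linear scale, and to 514 to 634 over all macrophage arrays. The median probe set was at 5.88 to 5.93 log2 units on liver arrays and at 6.57 to 6.77 on macrophage arrays.

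Sequence before listed start sites is shown first for 5 of the 6 members whose 2 double-knockout livers both lay below both Apoe-/- livers. This choice was made since these members differed together. The RefSeq table of GRCm38.p6 held 12 start sites for 8 of the 10 genes. Each line gives the 250 bases before a start site, 5′ to 3′ on the strand of the gene; for Pparg and Cidec, which have several listed starts, the one with the best match is given, and the first listed where matches were equal. Capitals mark the stretch most like the direct repeat bound by PPAR and retinoid X receptor pairs, which is AGGTCA followed by any 1 base (N) and AGGTCA again, searched on both strands.
Fitm1 (chr14:55575424-55575673, plus strand): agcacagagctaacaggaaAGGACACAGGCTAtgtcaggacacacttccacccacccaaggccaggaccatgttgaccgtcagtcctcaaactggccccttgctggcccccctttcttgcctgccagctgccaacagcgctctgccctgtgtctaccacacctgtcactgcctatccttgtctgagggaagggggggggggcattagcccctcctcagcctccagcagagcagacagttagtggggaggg
Mogat1 (chr1:78510810-78511059, plus strand): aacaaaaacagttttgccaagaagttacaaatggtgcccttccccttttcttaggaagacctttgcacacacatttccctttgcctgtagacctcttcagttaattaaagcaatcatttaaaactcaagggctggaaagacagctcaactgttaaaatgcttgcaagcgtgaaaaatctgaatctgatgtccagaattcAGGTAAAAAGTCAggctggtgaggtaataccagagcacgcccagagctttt
Pparg (chr6:115360894-115361143, plus strand): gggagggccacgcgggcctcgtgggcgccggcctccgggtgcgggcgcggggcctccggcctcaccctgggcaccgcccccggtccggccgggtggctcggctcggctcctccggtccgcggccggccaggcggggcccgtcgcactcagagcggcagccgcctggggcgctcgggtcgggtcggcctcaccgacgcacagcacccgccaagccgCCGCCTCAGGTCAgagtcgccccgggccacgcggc
Cidec (chr6:113435761-113436010, minus strand): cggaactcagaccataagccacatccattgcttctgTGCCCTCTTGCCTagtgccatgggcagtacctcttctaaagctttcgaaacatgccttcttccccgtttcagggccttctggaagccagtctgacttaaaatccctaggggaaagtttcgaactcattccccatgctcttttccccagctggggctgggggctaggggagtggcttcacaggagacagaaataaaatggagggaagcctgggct
Plin2 (chr4:86670060-86670309, minus strand): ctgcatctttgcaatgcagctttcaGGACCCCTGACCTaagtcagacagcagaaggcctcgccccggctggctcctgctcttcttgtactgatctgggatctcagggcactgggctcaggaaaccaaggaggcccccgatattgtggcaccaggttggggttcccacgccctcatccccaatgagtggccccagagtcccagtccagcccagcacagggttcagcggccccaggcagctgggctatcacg

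In Mogat1 and Plin2 the marked stretch had 2 mismatches to the direct repeat. In Mogat1 it lay 51 to 39 bases before the start on the strand of the gene, and in Plin2 225 to 213 bases before it on the other strand. A match with at most 2 mismatches stood in 1063 of 32851 promoters of that length, or 3.24%. Pparg had 4 mismatches. Fitm1 and Cidec had 3, as did 1 start of Plin5, and at most 3 mismatches stood in 21.3% of all promoters. The shorter AGGTCA, which is part of the repeat, stood in 4 of the 12 member windows and in 14.0% of all windows. A match is a description of letters only. On the same build Plin4 and Plin5 are neighbours on chromosome 17, at 56100587 to 56109948 and 56111597 to 56117606, and Pparg and Cidec are both on chromosome 6, at 115360879 to 115490404 and 113424634 to 113435760. The printed Pparg window thus lies inside the span of the gene. That of Plin2 overlaps its gene, which runs from 86626910 to 86670217.

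In liver, the question is what differs without Prkch in re-fed, fat-fed mice that lack Apoe. All 10 genes had a lower mean in double-knockout livers, against 57.2% of the 15942 genes tested. The largest differences were in Fitm1, Mogat1 and Pparg, at 40.7%, 45.3% and 48.1% of control, with Mogat1 dim in double-knockout livers. For 6 genes every double-knockout liver lay below every Apoe-/- liver, a pattern seen in 18.0% of all genes tested. Since the members were chosen with this contrast known, nothing is read from either share. In whole tissue, fewer cells of a type and less RNA per cell cannot be told apart.

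**Figure D1:**
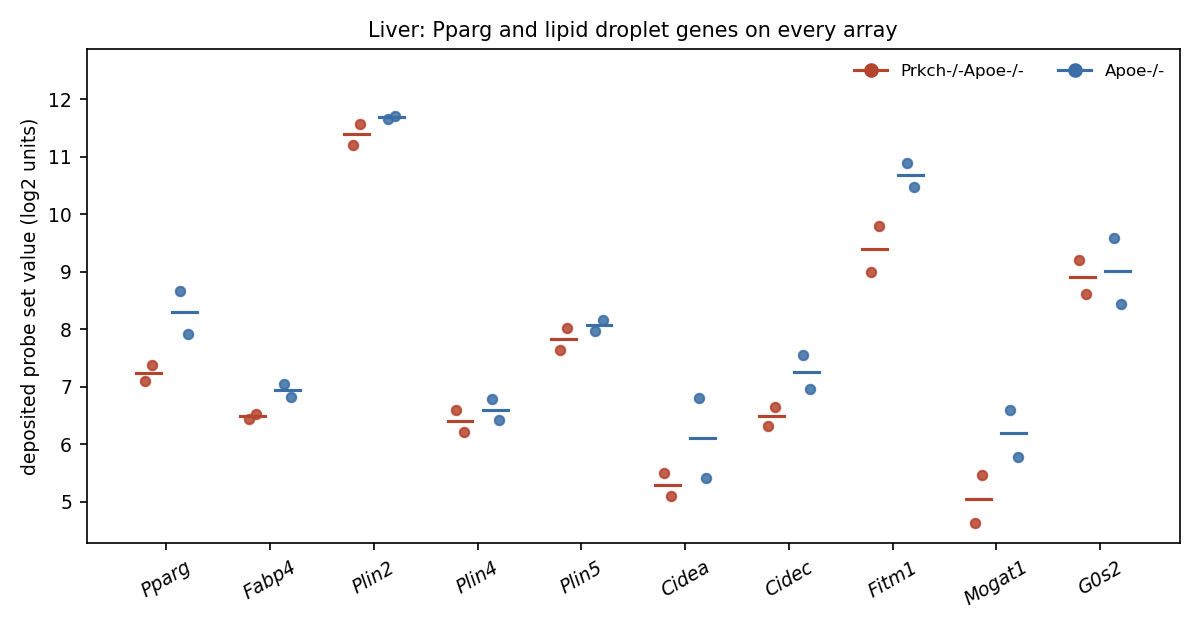
Deposited log2 value of each gene in liver; each point is 1 array, bars are group means, double-knockout in red at the left of each pair and Apoe-/- in blue at its right. The groups are apart in Pparg, Fabp4, Plin2, Cidec, Fitm1 and Mogat1 and overlap in Plin4, Plin5, Cidea and G0s2.

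Pparg, the receptor itself, read 7.10 and 7.38 log2 units in double-knockout livers, against 8.67 and 7.92 in Apoe-/- livers, a difference of -1.06 ± 0.24 (limma SE, n = 2 and 2). Both double-knockout arrays were low and close together, while the controls spread over a wider range. Without control replicate 1 the Pparg difference was -0.68. Fabp4, a fatty acid carrier of fat cells and macrophages, read 6.45 and 6.52 in double-knockout livers, against 7.05 and 6.82 in Apoe-/- livers, a difference of -0.45 ± 0.14. The genotypes did not overlap in Fabp4 either, at a smaller distance.

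Besides Pparg, the lowest shares of control were in the droplet formation gene Fitm1 and the enzyme gene Mogat1. Fitm1 encodes a protein of the endoplasmic reticulum that binds triglyceride and promotes droplet formation, and is best known from muscle. It read 8.99 and 9.79 log2 units in double-knockout livers, against 10.89 and 10.48 in Apoe-/- livers, a difference of -1.30 ± 0.26 (limma SE, n = 2 and 2). The nearest values of the 2 genotypes were 9.79 and 10.48. Mogat1, an acyltransferase that makes diacylglycerol from monoacylglycerol, read 4.63 and 5.46 in double-knockout livers, against 6.60 and 5.79 in Apoe-/- livers, a difference of -1.14 ± 0.31. Here the replicates differed within each genotype by more than the gap between the nearest arrays. The difference was -0.74 without control replicate 1 and -0.73 without double-knockout replicate 1. Relative to the median of the arrays, the Mogat1 mean stood at -0.86 log2 units in double-knockout and 0.28 in Apoe-/- livers. Its share of control therefore rests on dim values.

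The CIDE genes, whose products join small droplets into larger ones, were lower in mean, with the spread of the controls deciding how clear the gap was. Cidec read 6.31 and 6.65 log2 units in double-knockout livers, against 7.56 and 6.96 in Apoe-/- livers, a difference of -0.78 ± 0.21 (limma SE, n = 2 and 2). Leaving out control replicate 1 gave -0.48. Cidea, best known from brown fat, read 5.49 and 5.11 in double-knockout livers, against 6.80 and 5.41 in Apoe-/- livers, a difference of -0.81 ± 0.38. Control replicate 1 alone was high: the second control lay between the 2 double-knockout arrays, and without replicate 1 the Cidea difference was -0.11, against -1.51 without control replicate 2.

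The perilipin genes, which encode droplet coats, differed least among the coat and fusion genes. Plin2, the coat protein of droplets in most cells, read 11.21 and 11.56 log2 units in double-knockout livers, against 11.66 and 11.71 in Apoe-/- livers, a difference of -0.30 ± 0.15 (limma SE, n = 2 and 2). Double-knockout replicate 2 lay just under the controls, and the difference was -0.12 without double-knockout replicate 1 and -0.48 without replicate 2. Plin5, a coat of tissues that burn fat, read 7.63 and 8.03 in double-knockout livers, against 7.97 and 8.16 in Apoe-/- livers, a difference of -0.23 ± 0.17. Its groups overlapped, with -0.04 without double-knockout replicate 1, -0.43 without replicate 2 and -0.14 without control replicate 2. Plin4, a coat abundant in fat tissue, read 6.60 and 6.22 in double-knockout livers, against 6.78 and 6.42 in Apoe-/- livers, a difference of -0.19 ± 0.18. Leaving out 1 array moved Plin4 from -0.39, without double-knockout replicate 1, to -0.0021, without double-knockout replicate 2. Without control replicate 2 it was -0.37, and leaving out control replicate 1 gave -0.02.

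G0s2 encodes an inhibitor of the triglyceride lipase of Pnpla2. It read 9.20 and 8.62 log2 units in double-knockout livers, against 9.58 and 8.44 in Apoe-/- livers, a difference of -0.11 ± 0.34 (limma SE, n = 2 and 2). The genotypes overlapped fully, and the direction turned without control replicate 1 (0.46) or double-knockout replicate 2 (0.18). It was -0.68 without control replicate 2 and -0.40 without double-knockout replicate 1.

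Among the 4 livers, control replicate 1 held the highest value of 8 members and double-knockout replicate 1 the lowest of 7. The median member lay 0.55 and 0.51 log2 units below the control mean on double-knockout replicates 1 and 2, and the control arrays themselves lay 0.25 to either side of it. The median difference of the 10 members was -0.61, against -0.02 over all genes tested. With limma and Benjamini-Hochberg adjustment over all genes, 0 of the 10 members were called at an adjusted p under 0.05, against 0.00627% of all genes. At an unadjusted p under 0.05 there were 5 members, against 4.29% of all genes, from which again nothing is read.

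Marker lists of other cell types were set beside these values. Over all genes tested, 57.2% had a lower mean and 18.0% were lower without overlap. Macrophage markers had 10 of 11 genes lower in double-knockout livers and 7 without overlap, with summed linear levels of 5927 and 6866 in double-knockout and 7576 and 10240 in Apoe-/- livers. Kupffer cell markers had 7 of 7 lower and 1 without overlap, and summed to 5053 and 3443 in double-knockout and 5265 and 6722 in Apoe-/- livers. Adipocyte markers had 4 of 5 tested genes lower and 2 without overlap, and summed to 402 and 385 in double-knockout livers, against 414 and 429 in Apoe-/- livers. Adipoq, the defining fat cell hormone, did not pass the filter on dim genes, at 3.68 and 3.62 log2 units in double-knockout and 3.84 and 3.61 in Apoe-/- livers. Hepatocyte markers had 2 of 9 lower and 5 higher without overlap, a pattern seen in 11.8% of all genes tested. These 5 differed by little, from 0.04 (Alb) to 0.16 (Cps1) log2 units. The part of macrophage and Kupffer cell numbers in the members' differences was not tested.

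**Figure D2:**
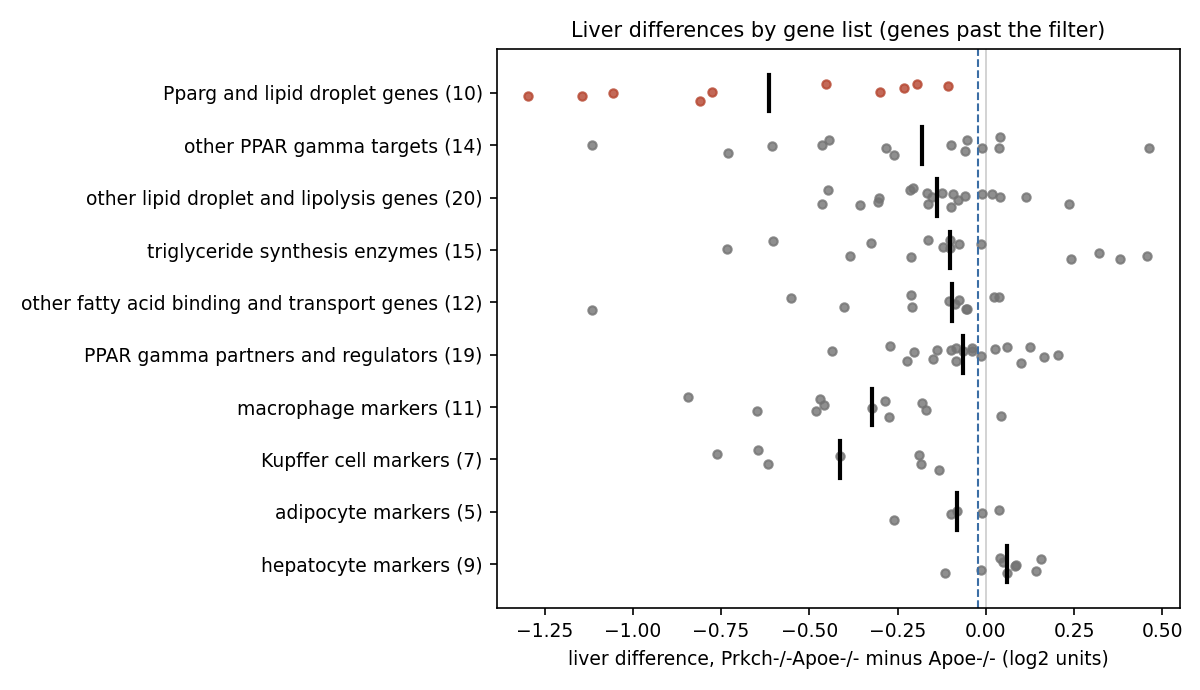
Liver differences, double-knockout minus Apoe-/-, in log2 units for the genes of each list past the filter, with the number of genes in brackets; black bars are list medians and the dashed line is the median of all genes tested, -0.02. The 10 members, in red, lie between -1.30 and -0.11; the other lists drawn have medians between -0.41 (Kupffer cell markers) and 0.06 (hepatocyte markers).

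Other genes of the pathway were taken from fixed lists, some of which share genes. Over all genes tested in liver, 57.2% had a lower mean, and 18.0% were lower without overlap and 11.8% higher. An unadjusted limma p under 0.05 was found in 4.29%. Of other PPAR gamma targets, 11 of 14 tested genes had a lower mean in double-knockout livers and 3 a higher one, with a median of -0.18; 5 were lower without overlap and 0 higher. Cd36, the fatty acid transporter, read 9.48 and 10.62 log2 units in double-knockout livers, against 11.30 and 11.03 in Apoe-/- livers, a difference of -1.11 ± 0.32 (limma SE, n = 2 and 2). Lpl, lipoprotein lipase, differed by -0.73 ± 0.24, its inhibitor gene Angptl4 by -0.61 ± 0.18, and Pnpla2, the adipose triglyceride lipase, by -0.46 ± 0.16, all without overlap. Double-knockout replicate 1 was the lowest array for Cd36, Lpl and Pnpla2, and without it their differences were -0.55, -0.34 and -0.28; without double-knockout replicate 2 those of Cd36 and Lpl were -1.68 and -1.12. None passed limma's adjusted threshold; 4 of the 14 had an unadjusted p under 0.05.

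Of other lipid droplet and lipolysis genes, 16 of 20 were lower in mean and 4 higher, with a median of -0.14; 8 were lower without overlap and 1 higher. Beside Pnpla2, the largest differences were in Mgll, the monoacylglycerol lipase (-0.45 ± 0.20), Hilpda, a droplet protein that inhibits that triglyceride lipase (-0.36 ± 0.18), and Hsd17b11, a dehydrogenase found on droplets (-0.30 ± 0.17). Without double-knockout replicate 1, again the lowest array, the differences of Mgll, Hilpda and Hsd17b11 were -0.18, -0.13 and -0.07, and without double-knockout replicate 2 they were -0.71, -0.58 and -0.54; Mgll was at -0.27 without control replicate 1. Limma called 0 of the 20, and 1 had an unadjusted p under 0.05. Triglyceride synthesis enzymes were split: 11 of 15 had a lower mean and 4 a higher one, with 5 lower and 4 higher without overlap and a median of -0.10. The phosphatidate phosphatase gene Lpin1 read 8.84 and 8.09 log2 units in double-knockout livers, against 8.41 and 9.98 in Apoe-/- livers, a difference of -0.73 ± 0.45 with overlap. Control replicate 2 alone was high, and without it the Lpin1 difference was 0.05; it lay between -1.52 and -0.36 when any other array was left out. Lpin2 differed by -0.60 ± 0.19, and by -0.39 without double-knockout replicate 2. Gpat3, an acyltransferase of the first step, differed by -0.38 ± 0.14. Gpam, the mitochondrial acyltransferase of that step, read 11.18 and 10.69 log2 units in double-knockout livers, against 10.57 and 10.39 in Apoe-/- livers, a difference of 0.46 ± 0.18. The Gpam difference was 0.21 without double-knockout replicate 1 and 0.70 without double-knockout replicate 2. Limma called 0 of the 15, and 4 had an unadjusted p under 0.05.

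Of other fatty acid binding and transport genes, 10 of 12 were lower in mean and 2 higher, with 7 lower and 0 higher without overlap and a median of -0.10. After Cd36 came Slc27a1, a fatty acid transport protein (-0.55 ± 0.23), and the binding proteins Fabp7, best known from brain (-0.40 ± 0.15), and Fabp2, best known from intestine (-0.21 ± 0.15). Without double-knockout replicate 1 the differences of Slc27a1 and Fabp2 were -0.17 and -0.05, and without double-knockout replicate 2 those of Slc27a1, Fabp7 and Fabp2 were -0.93, -0.25 and -0.38. Limma called 0 of the 12, and 3 had an unadjusted p under 0.05. Partners and regulators of PPAR gamma had 13 of 19 genes lower and 6 higher, with 5 lower and 1 higher without overlap and a median of -0.06. Cebpb, a transcription factor of early fat cell formation, differed by -0.44 ± 0.24 and Ppara, the PPAR of fat burning, by -0.22 ± 0.20, both with overlap. Klf15 differed by -0.27 ± 0.17, and Ppard, the third PPAR, by 0.20 ± 0.13, both without overlap. Leaving out 1 array put Cebpb between -0.76 and -0.11 and Klf15 between -0.49 and -0.05, both ends moved by over 1.5 times, and Ppara between -0.46 (without control replicate 2) and 0.02 (without control replicate 1). Limma called 0 of the 19 and 0 had an unadjusted p under 0.05.

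The same question was put to elicited macrophages. Fabp4 alone among the members had every double-knockout array below every Apoe-/- array, against 1.60% of the 15039 genes tested. Pparg was lower in mean, but 1 array carried most of its difference. The other 8 members differed by at most 0.12 log2 units in mean, in both directions, and 7 of the 10 members had a lower mean, against 63.5% of all genes. No member had every double-knockout array above every control (0.652% of all genes), and Pparg was the 1 member lower by 0.5 log2 units or more (0.598% of all genes). Since the members were chosen with these values known, nothing is read from these shares. Mogat1 and Cidea lay below the filter on dim genes, so 8 of the 10 were tested.

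Exact ties between deposited values limit what these arrays can show. Any pair among double-knockout replicates 2 and 3 and control replicate 3 had 16075 to 18000 identical values, against 53 to 69 among the other 3 arrays and 0 to 3 across; the 2 sets are called batch 2 and batch 1. For Plin4, Plin5, Cidec, Fitm1, Mogat1 and G0s2 the 3 arrays of batch 2 had the same value to the last digit, as in 41.2% of all genes tested, and Cidea had the same value on 2 of them. For these 6 genes only batch 1, with 1 double-knockout array and 2 Apoe-/- arrays, carries a difference.

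**Figure D3:**
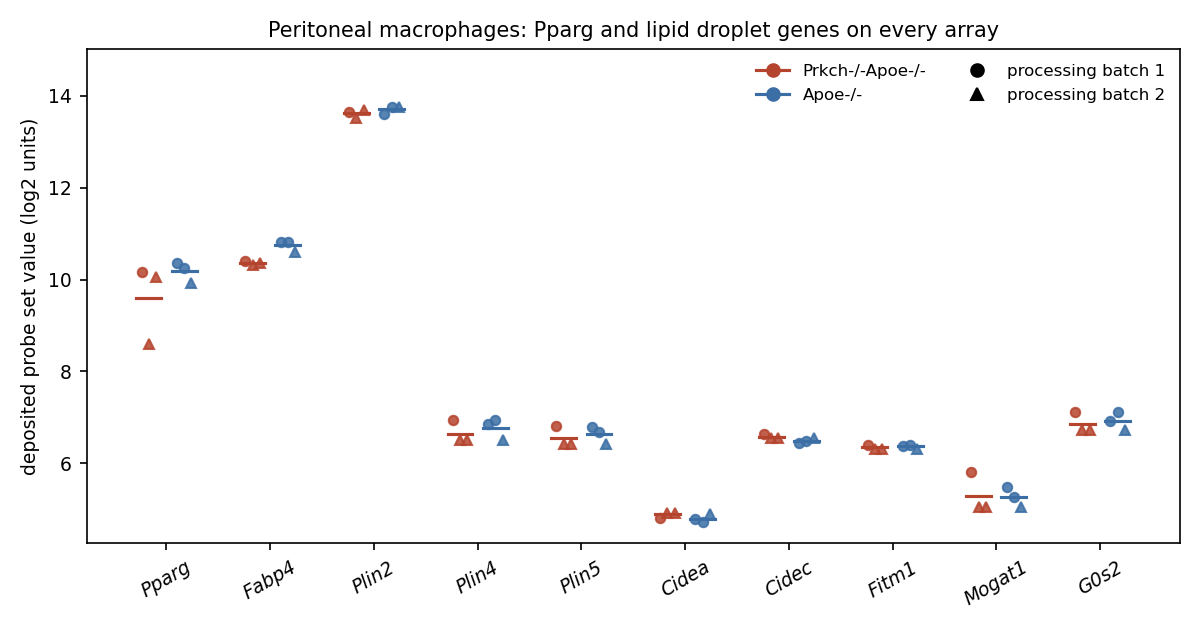
Deposited log2 value of each gene in peritoneal macrophages, double-knockout in red at the left of each pair and Apoe-/- in blue at its right; circles are batch 1, triangles batch 2, bars group means. Fabp4 is the member whose groups are apart, and the lowest Pparg point, 8.59, is double-knockout replicate 2.

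Fabp4 read 10.40, 10.31 and 10.36 log2 units in double-knockout macrophages, against 10.82, 10.82 and 10.60 in Apoe-/- macrophages, a difference of -0.39 ± 0.09 (limma SE, n = 3 and 3). The double-knockout arrays were close together, and the difference was -0.42 within batch 1 and -0.27 within batch 2. Leaving out any 1 array kept it between -0.46 and -0.35. Pparg read 10.15, 8.59 and 10.06 in double-knockout macrophages, against 10.37, 10.25 and 9.91 in Apoe-/- macrophages, a difference of -0.57 ± 0.41. Double-knockout replicate 2 was the low array; the Pparg difference was -0.07 without it, -0.15 within batch 1 and -0.59 within batch 2, and fitting the batch as a block gave -0.37. On that array B cell markers summed to 4497, against 781 and 927 on the other double-knockout arrays and 834 to 1765 on Apoe-/- arrays, with 6 of 6 markers higher in mean in double-knockout macrophages and 0 without overlap. Macrophage markers summed to 59371 to 76414 in double-knockout and 59697 to 68987 in Apoe-/- macrophages, with 6 of 11 lower in mean. Their sum was highest on that array as well, but they did not all go the same way. Cd68, Fcgr1 and Mrc1 read lowest there among the macrophage arrays, at 13.05, 9.94 and 11.04 log2 units. The other macrophage markers read highest there. Mesothelial cell markers had 7 of 8 genes lower in double-knockout macrophages, with 0 without overlap, a median of -0.36 and 2 at an unadjusted p under 0.05. They summed to 1012, 708 and 768 in double-knockout and to 1150, 969 and 994 in Apoe-/- macrophages, lowest on double-knockout replicate 2. The part of B cells and mesothelial cells in the Pparg value was not tested.

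Plin2 was bright and nearly level, at 13.66, 13.52 and 13.70 log2 units in double-knockout macrophages, against 13.61, 13.76 and 13.76 in Apoe-/- macrophages, a difference of -0.09 ± 0.09 (limma SE, n = 3 and 3). The difference was -0.03 within batch 1 and -0.16 within batch 2. In batch 1, where the tied genes can be compared, double-knockout replicate 1 differed from the 2 Apoe-/- arrays by 0.44 in Mogat1, 0.17 in Cidec, 0.08 in G0s2, 0.07 in Plin5, 0.05 in Plin4 and 0.01 in Fitm1. Cidea differed by 0.07 in batch 1 and 0.03 in batch 2. With the batch as a block the differences of Plin4, Plin5, Fitm1 and G0s2, which were -0.12, -0.09, -0.02 and -0.07 without it, became 0.02, 0.04, 0.0069 and 0.04, so their direction is not settled. The median difference of the 8 tested members was -0.09, against -0.04 over all genes. Limma called 0 of these 8 and 0% of all genes; 1 member had an unadjusted p under 0.05, against 0.698% of all genes.

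Other genes of the pathway in macrophages were likewise not called. Of other PPAR gamma targets 10 of 14 were lower in mean (median -0.08), of other lipid droplet and lipolysis genes 16 of 19 (median -0.11), of triglyceride synthesis enzymes 8 of 15 (median -0.02), of other fatty acid binding and transport genes 7 of 9 (median -0.13) and of partners and regulators 9 of 19 (median 0.0063). The median of all genes was -0.04, and 63.5% had a lower mean. Other droplet and lipolysis genes summed to 19281 on double-knockout replicate 2. They summed to 27408 and 26635 on the other double-knockout arrays and 26147 to 27113 on Apoe-/- arrays. In the same order, other fatty acid genes summed to 18361, 25163 and 25196, and 24829 to 27062. Other targets summed to 21449, 31917 and 30320, and 28959 to 32737. On that replicate partners and regulators were highest and triglyceride enzymes within the Apoe-/- range. Without overlap, 1 of the other targets and 1 triglyceride synthesis enzyme were lower, 1 such enzyme was higher, and 0 genes of the other 3 lists were either. The enzyme genes were Agpat2, an acyltransferase of the second step (-0.30 ± 0.17), and Acsl4, a fatty acid activating enzyme (0.16 ± 0.09). The target was Angptl4, at 7.87, 7.21 and 8.02 log2 units in double-knockout macrophages, against 8.03, 8.19 and 9.03 in Apoe-/- macrophages, a difference of -0.72 ± 0.32 (limma SE, n = 3 and 3). The nearest values of the genotypes were close, and the Angptl4 difference was -0.24 within batch 1 and -1.42 within batch 2, -0.47 without double-knockout replicate 2 and -0.41 without control replicate 3. These 3 genes were named after their values were seen. Limma called 0 in each list, with 0 at an unadjusted p under 0.05.

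In liver the differences of Fitm1, Mogat1 and Cidec were -1.30, -1.14 and -0.78 log2 units, and in macrophages they were -0.02, 0.03 and 0.08. The macrophage difference minus the liver difference was 1.27 ± 0.29 for Fitm1, 1.18 ± 0.46 for Mogat1 and 0.90 ± 0.44 for Cidea. It was 0.86 ± 0.24 for Cidec and 0.48 ± 0.59 for Pparg (limma SE, 10 arrays). For Fabp4, Plin2, Plin4, Plin5 and G0s2 it was 0.06, 0.21, 0.08, 0.15 and 0.04. Mogat1 and Cidea, below the macrophage filter, entered through liver alone. Fitm1, Mogat1 and Cidec had identical values on all batch 2 macrophage arrays. For such genes the contrast mostly restates the liver differences, which are among the values that chose them. Over 16363 genes limma called 0 in this contrast after Benjamini-Hochberg adjustment, members included, with 345 genes, or 2.11%, at an unadjusted p under 0.05. Tissue cannot be told apart from sex, diet and age here. Relative to the median of their own arrays, Fabp4 and Pparg stood 3.70 and 2.95 log2 units higher in double-knockout macrophages and 4.06 and 3.49 in Apoe-/- macrophages, against 0.58 and 1.33 in double-knockout livers and 1.03 and 2.39 in Apoe-/- livers. Fitm1 ran the other way, at -0.32 and -0.32 in macrophages of both genotypes and at 3.48 in double-knockout and 4.78 in Apoe-/- livers. Whether macrophage and liver arrays were normalized together is not given, so these levels are set side by side with no test.

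Genes whose pattern was most like that of Pparg were sought by the root mean square gap between deviations from the control mean of the same tissue, over the 10 macrophage and liver arrays, among 14616 other genes. Only genes past the filter in both tissues were ranked, so Mogat1 and Cidea were not. The 5 nearest were Lgals1, the gene of galectin 1, with a gap of 0.17 log2 units, Atp6v0d2, a proton pump subunit gene (0.24), Cd63, a tetraspanin gene of late endosomes (0.25), Gpr137b (0.26) and Uap1l1 (0.26). Their liver differences were -1.17, -0.72, -1.03, -1.12 and -0.54, and their macrophage differences -0.47, -0.54, -0.46, -0.38 and -0.45. The nearest of the ranked members, Fabp4, was at 170 (gap 0.49), with Fitm1 at 308 and Cidec at 503. The genes nearest to Cidec were Pnldc1 (0.13), Gabarapl1 (0.13), Rdh9 (0.13), Dnajb9 (0.14) and Kdsr (0.15), with liver differences between -0.71 and -0.58 and macrophage differences between -0.06 and 0.09. Fitm1 ranked 239 for Cidec and Pparg 13984. The deviations of Pparg and Cidec were furthest apart on double-knockout macrophage replicate 2. There Pparg read 8.59 log2 units against a control mean of 10.18, and Cidec 6.54 against 6.49. In liver their differences were -1.06 and -0.78.

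With 1 aorta array for each genotype, the aorta differences carry no replicate check and no p. All 10 members were bright enough to pass the filter. Signals were lower in the double-knockout pool for 9 of the 10 members, against 51.5% of the 7098 genes kept, and higher for Fabp4. None reached a 2-fold difference on the log2(signal + 16) scale, which 0.394% of genes reached downward and 0.873% upward. That scale understates changes of dim genes.

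**Figure D4:**
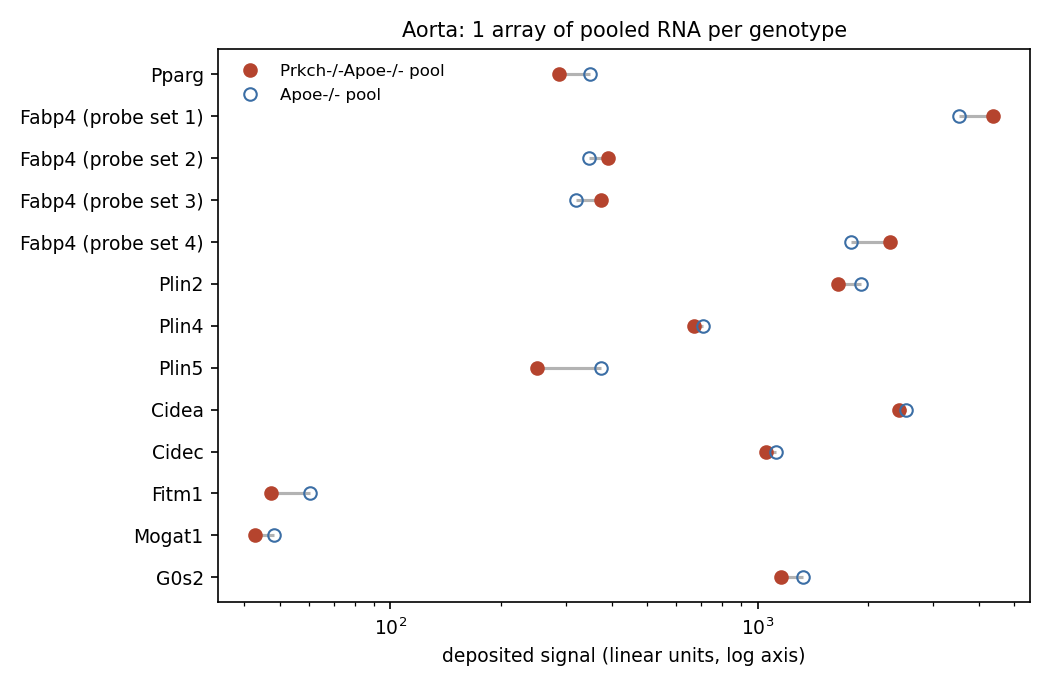
Signal of each of the 13 aorta probe sets in the double-knockout pool (filled red) and the Apoe-/- pool (open blue), on a log axis; each point is 1 array of RNA pooled from 4 mice. The 4 Fabp4 probe sets lie higher in the double-knockout pool and the 9 others lower, with the longest line in Plin5.

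Plin5 had the largest difference, at 250.3 in the double-knockout pool and 374.03 in the Apoe-/- pool, a ratio of 0.669. Fitm1 was at 47.2 in the double-knockout pool and 60.3 in the Apoe-/- pool (ratio 0.784), and Pparg was at 289 in the double-knockout pool and 350 in the Apoe-/- pool (ratio 0.826). The droplet coat gene Plin2 was at 1659 in the double-knockout pool and 1908 in the Apoe-/- pool (ratio 0.870), and the lipase inhibitor gene G0s2 was at 1155 in the double-knockout pool and 1332 in the Apoe-/- pool (ratio 0.867). The CIDE genes and Plin4 were the closest to equal. Cidea was at 2433 in the double-knockout pool and 2532 in the Apoe-/- pool (ratio 0.961), and Cidec was at 1055 in the double-knockout pool and 1122 in the Apoe-/- pool (ratio 0.941). Plin4 was at 673 in the double-knockout pool and 708 in the Apoe-/- pool (ratio 0.951). Mogat1, a dim probe set here, was at 42.8 in the double-knockout pool and 48.2 in the Apoe-/- pool (ratio 0.889). All 4 Fabp4 probe sets were higher in the double-knockout pool, with ratios of 1.12 to 1.27 and 4372 in the double-knockout against 3534 in the Apoe-/- pool for the brightest. With quantile normalization of the 2 arrays the Fabp4 difference was 0.06 in place of 0.31 log2 units, Plin2 -0.34 in place of -0.20 and Cidea -0.27 in place of -0.06.

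Fat cell markers were present in both aorta pools. Ucp1, the uncoupling protein that defines brown fat cells, had a signal of 2754 in the double-knockout pool and 2598 in the Apoe-/- pool, and Adipoq had 2668 in the double-knockout pool and 2354 in the Apoe-/- pool. Brown adipocyte markers had 4 of 6 genes lower and summed to 9783 in the double-knockout and 9961 in the Apoe-/- pool. Adipocyte markers had 3 of 5 lower and summed to 4428 in the double-knockout pool and 4248 in the Apoe-/- pool, and macrophage markers had 3 of 10 lower and summed to 5919 in the double-knockout pool and 5627 in the Apoe-/- pool. B cell markers had 3 of 3 tested genes higher by 2-fold or more and summed to 702 in the double-knockout pool and 108 in the Apoe-/- pool. Vascular smooth muscle markers had 5 of 6 higher and summed to 4909 in the double-knockout pool and 4058 in the Apoe-/- pool. Endothelial cell markers had 5 of 5 tested genes lower, with a median of -0.17. They summed to 1002 in the double-knockout pool and 1240 in the Apoe-/- pool. Skeletal muscle markers had 7 of 7 lower and summed to 6148 in the double-knockout and 9154 in the Apoe-/- pool. The part of these cell types in the members' ratios was not tested.

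Of partners and regulators of PPAR gamma in the aorta, 11 of 16 were lower in the double-knockout pool and 5 higher, with a median of -0.23. Ppargc1a, a coactivator gene of fat burning and heat production, was the 1 gene past 2-fold on the log2(signal + 16) scale, with a difference of -1.18 and signals of 91.8 in the double-knockout pool and 228 in the Apoe-/- pool. Its relative Ppargc1b, at 239 in the double-knockout pool and 492 in the Apoe-/- pool, differed by -0.99 on that scale, just short of 2-fold. Ppara was at 172 in the double-knockout pool and 287 in the Apoe-/- pool. These 3 genes were named after their values were seen. Other PPAR gamma targets had 9 of 15 lower (median -0.02), other droplet and lipolysis genes 11 of 15 (median -0.15), triglyceride synthesis enzymes 6 of 10 (median -0.05) and other fatty acid binding and transport genes 5 of 8 (median -0.05). The median of all genes kept was -0.0096, and 0 genes of these 4 lists passed 2-fold.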

How the data were processed

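RNA was measured on Affymetrix Mouse Gene 1.0 ST arrays (10 arrays, macrophages and liver) and Mouse Genome 430A 2.0 arrays (2, aorta). Affymetrix Expression Console was used, per the submitters' processing notes; its algorithm and version, and which arrays were processed together, are not stated in the labels used. Deposited values of macrophages and liver are log2 probe set summaries, and the aorta file holds deposited linear intensity, both judged from their range; normalization was not repeated. The number of arrays limits the precision, and SE and p measure the spread between arrays labelled biological replicates.

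Only probe sets with 1 symbol in the platform annotation were used (21789 of 35557 and 20393 of 22690), and a gene was represented by its brightest. Genes with a mean under the 30th percentile of probe sets were left out. In aorta, genes whose higher signal was under 32.6 were left out. That cut is the median, over all probe sets, of the higher signal of each. Each tissue was fitted alone by limma 3.58.1 (R 4.3.3) as the double-knockout minus the Apoe-/- mean, using Benjamini-Hochberg adjustment and a threshold of 0.05; aorta differences are log2(signal + 16). Fits were checked on simulated data. Alternatives were quantile normalization, no filter, the mean of probe sets, a trended prior, blocks and leaving out each array.

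The members and lists were chosen with earlier results of these data known. Each member is described; of each other list the 4 genes with the largest liver difference are named, and the 5 genes nearest in pattern to Pparg and Cidec. Other names were chosen after their values were seen.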

Additional observations from a re-analysis of the deposited data

How the results depend on the processing

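The count of 6 members lower without overlap in liver stayed at 6 with quantile normalization, without the filter and with the mean of probe sets, and was 7 to 9 when 1 array was left out, which makes no overlap easier. In macrophages the count was 1, and 2 without control replicate 1 (Plin2 added) or without control replicate 3 (Pparg added). Member differences moved by over 1.5 times or turned sign in 19 combinations of member and alternative in liver, 45 in macrophages and 3 in aorta; beside those given with the members' values, the sign changes were in macrophages, where Mogat1 was -0.08 without control replicate 3 and -0.22 without double-knockout replicate 1, G0s2 0.03 without control replicate 2, and Fitm1 0.01 with quantile normalization. The sign turned in 2 of these combinations in liver, 8 in macrophages and 0 in aorta.

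The number of genes limma called in liver was 1, and 0 with quantile normalization, without the filter, with a trended prior and with all 10 arrays in 1 fit; it ran from 0 to 39 when 1 array was left out, the lone array being assumed to vary like the other genotype. With the replicate block it was 23 of the 15942 genes tested, of which 11 were higher. Fitm1 was the 1 member among these 23. Its liver values chose it, so no p is given and nothing is read from the call. Without double-knockout replicate 2, which leaves 1 array in that group, the Fitm1 difference was -1.69. In macrophages every fit run called 0, the replicate block included. Same-numbered macrophage arrays share the age of the mice, and the labels give no shared litter, batch or day: their deviations correlated at 0.40, 0.03 and 0.50, 4 of 6 arrays correlated best with their own number, and with 2 pairs the liver value of 0.11 is the same for both. By exact ties, both replicate 1 macrophage arrays were in batch 1 and both replicate 3 arrays in batch 2, while replicate 2 was split. The parts of age and batch in these correlations were not tested. The macrophage minus liver contrast called 0, and 0 to 1 when 1 array was left out. In aorta 90 genes passed 2-fold, and 169 did with a pseudocount of 1. Leaving out arrays for the other named genes was chosen after seeing the data. The cause of these shifts was not tested.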
